A study of Mus musculus with 2 samples.

Results

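The family of miR-15, miR-16, miR-195 and miR-497 was measured in small RNA of wild-type mouse hearts at embryonic day 9.5, the stage at which the heart tube is forming its chambers. The members were the precursor entries named miR-15a, miR-15b, miR-16, miR-195a, miR-195b or miR-497, with or without a further letter. These were 8 of the 620 entries listed in at least 1 of the 2 libraries, and all 8 were among the 471 listed in both. No entry carried the name miR-195b. An entry is 1 hairpin precursor, with the number of reads on its mature arm (the arm with more reads), on the loop and on the star arm (the opposite arm).

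The study asked which miRNAs act in the early heart, and small RNA was sequenced in 1 group only, whole hearts of wild type C57BL/6 embryos at day 9.5, with 2 replicates. Neither library had a treatment or a mutant counterpart here, so levels, arms and loci of the family were compared within and between these 2 libraries. The labels do not say whether the replicates came from separate embryos or pools, so the spread between them may be technical. The tables held 4942257 mature and 124128 star reads for replicate 1, against 4806179 and 132103 for replicate 2.

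The 5 cardiomyocyte miRNAs on the marker list (miR-1a, miR-133a, miR-208a, miR-208b and miR-499) were each listed in at least 1 replicate. Together they took 11.4% and 11.9% of mature reads in replicates 1 and 2. In these marker shares each sequence was counted once in the sum, while the total of mature reads held every entry. Endothelial miR-126a took 2.90% and 2.87%, the smooth muscle pair miR-143 and miR-145a 7.94% and 6.82%, and 4 of 5 pluripotent miRNAs of the miR-302 cluster 0.403% and 0.391%. The 3 erythroid miRNAs took 0.113% and 0.140%, liver miR-122 0.0421% and 0.0554%, 2 of 3 white blood cell miRNAs 0.00552% and 0.00522%, and the 2 neural miRNAs 0.00484% and 0.00370%. Cardiomyocyte miR-208a, erythroid miR-144 and neural miR-124 were not among the 431 entries listed in both replicates with at least 20 mature reads in sum. In at least 1 replicate the shares of these lists came from their other members. Whole hearts hold several cell types, and a low level of a miRNA in a few cell types cannot be told apart from a low level in every cell.

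A miRNA pairs with target mRNAs mainly through its seed, bases 2 to 8 from its 5′ end, and a family is a set of miRNAs that share this seed. The miR-15/16 family is known for lowering cyclins, other cell cycle proteins and the survival protein BCL2, and miR-195 and its relatives are known as brakes on cardiomyocyte division around birth. Mammals carry it as small clusters. In the mouse, miR-15a and miR-16-1 lie within the long noncoding RNA gene Dleu2, miR-15b and miR-16-2 within Smc4, a condensin subunit gene that acts in chromosome packing, and miR-195a with miR-497a form the third cluster. Because each miRNA is cut from a hairpin, both arms can be loaded into the silencing complex, and only one of them carries the family seed.

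The 5p arms of miR-16, miR-15a, miR-15b, miR-195a and miR-497a and of their relatives miR-322 and miR-503 are shown because all share at least bases 2 to 7 of the family seed. Capitals mark bases 2 to 8 of each. They are the sequences given in the processed tables, from replicate 2 for the members and from replicate 1 for the relatives.
miR-16-5p: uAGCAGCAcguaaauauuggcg
miR-15a-5p: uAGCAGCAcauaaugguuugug
miR-15b-5p: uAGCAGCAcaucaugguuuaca
miR-195a-5p: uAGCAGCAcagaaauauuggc
miR-497a-5p: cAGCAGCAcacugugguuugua
miR-322-5p: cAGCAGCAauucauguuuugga
miR-503-5p: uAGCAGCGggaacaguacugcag

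All 7 are identical to the mature sequences of RefSeq. The seed was AGCAGCA in each of these 5 members and in miR-322-5p, while miR-503-5p shared its first 6 bases and read AGCAGCG. Beyond the seed the members differed. miR-16-5p and miR-195a-5p stood 3 edits apart (substituted, added or missing bases) and miR-15a-5p and miR-15b-5p 4 edits apart, whereas miR-16-5p and miR-497a-5p stood 11 edits apart.

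The 3p arms of the members have other seeds, again in capitals, and are shown, as listed in replicate 1, because reads on them told the loci apart. The miR-497b sequence, from the opposite strand of miR-497a, is shown as the member name without the family seed on its read arm.
miR-16-1-3p: cCAGUAUUgacugugcugcugaa
miR-16-2-3p: cCAAUAUUauugugcugcuuua
miR-195a-3p: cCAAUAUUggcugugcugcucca
miR-15a-3p: cAGGCCAUacugugcugccuca
miR-15b-3p: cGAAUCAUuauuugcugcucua
miR-497b: aCCACAGUgugguuuggacgugg

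As listed in the tables, miR-16-2-3p and miR-195a-3p had the same seed, CAAUAUU, and shared their first 8 bases. This rested on the listed start of miR-16-2-3p, which lay 1 base downstream of its start in RefSeq. The listed sequence of miR-497b likewise began 1 base downstream of its RefSeq start.

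The precursors lay in 3 clusters, and coordinates are those of the assembly NCBIM37 (mm9). miR-16-1 (chr14:62250730-62250794) and miR-15a (chr14:62250873-62250933 in replicate 2) lay on the minus strand in an intron of Dleu2. A further entry named miR-15a (chr14:62250912-62250981 in replicate 2) lay on the same strand and overlapped the first by 24 bases in replicate 1. miR-15b (chr3:68813697-68813756) and miR-16-2 (chr3:68813840-68813904) lay on the plus strand in an intron of Smc4. miR-497a (chr11:70048232-70048293) and miR-195a (chr11:70048564-70048624) lay on the plus strand, with no host gene other than miRNA genes in GENCODE vM1. miR-497b (chr11:70048234-70048287) lay on the minus strand, and its 54 bases were all within miR-497a. The hairpins of a cluster were separated by 80 bases (replicate 1) and 78 bases (replicate 2) for miR-16-1 and miR-15a, 83 for miR-15b and miR-16-2 and 270 for miR-195a and miR-497a.

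**Figure D1:**
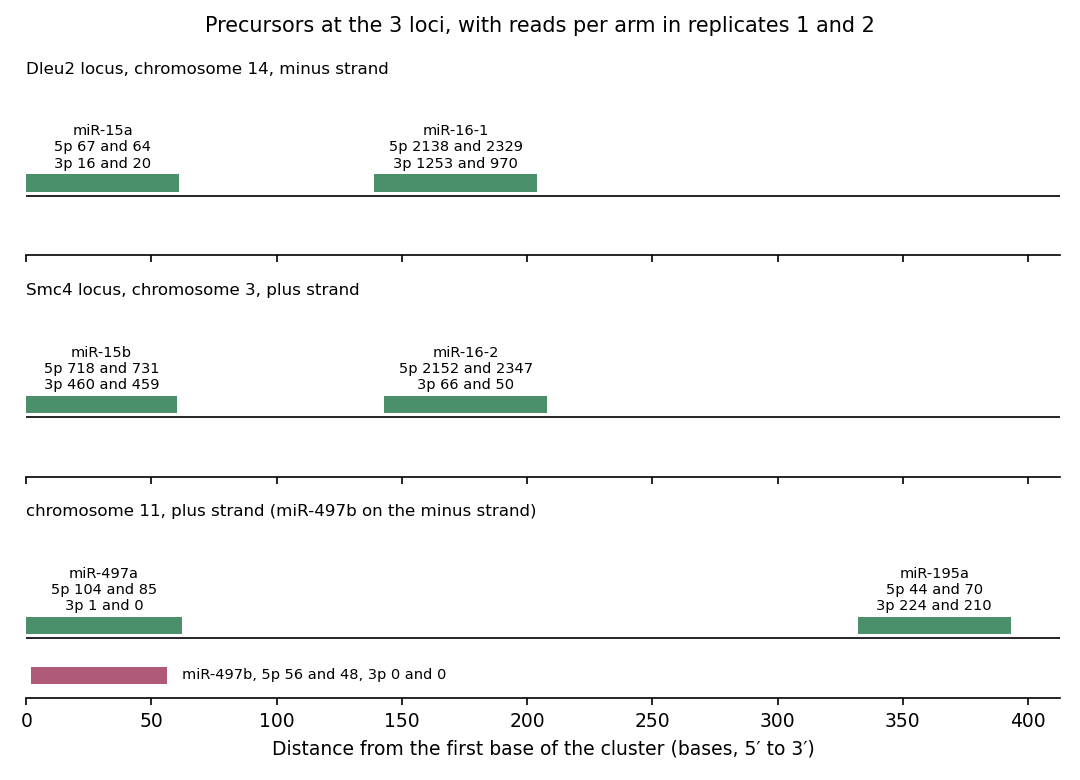
Each bar is a hairpin drawn to scale along its cluster, with the distance from the first base of the cluster in bases and bounds as listed in replicate 2, and the numbers are reads on the 5p and 3p arms in replicates 1 and 2. The miR-15 and miR-16 hairpins lie close together at both loci, and miR-497b (lower bar) lies within miR-497a on the opposite strand.

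The family as a whole was a small part of the mature miRNA reads listed for these hearts. With every entry counted, its 8 entries took 0.112% and 0.122% of mature reads in replicates 1 and 2, a mean of 0.117% ± 0.00742 (SD, n = 2). Both miR-16 entries give the same mature sequence and both miR-15a entries the same reads, so this sum counts them doubly. With each sequence counted once, 6 entries took 0.0699% ± 0.00376 (SD, n = 2) of all mature reads.

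miR-16 was the most abundant member, and its 2 loci could not be told apart by the mature arm. The miR-16-2 entry had 2152 and 2347 reads on 5p in replicates 1 and 2, against 2138 and 2329 at the miR-16-1 entry. The entries differed by 14 and 18 reads, 0.651% and 0.767% of the miR-16-2 reads. Their mature arms are the same 22 bases, so 1 read of that sequence can be listed at both loci. The entries ranked 141 and 142 of 471 by mean share, between miR-504-5p and miR-293-3p.

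miR-15b, the partner of miR-16-2, followed with 718 and 731 reads on 5p, rank 202 and about the level of miR-362-5p and miR-194-5p. Its partner in name at the Dleu2 locus was much lower. miR-15a-5p had 67 and 64 reads and ranked 334, between miR-669d-5p and miR-222-3p.

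Among the members of chromosome 11, miR-497a-5p had 104 reads in replicate 1 and 85 in replicate 2. It ranked 316, next to miR-3057-5p and miR-325-5p. miR-195a, the member best known from the heart, had most of its reads on the arm without the family seed. Its 3p arm counted 224 and 210 reads, rank 269 between miR-874-3p and miR-142a-3p, and its 5p arm 44 and 70. The 3p arm thus had 5.09 times the reads of the 5p arm in replicate 1 and 3 times in replicate 2. miR-497b had 56 and 48 reads and ranked 339, between miR-881-3p and miR-344d-3p.

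In the order by mean share (miR-16, miR-15b, miR-195a, miR-497a, miR-15a, miR-497b), every step held in both replicates. miR-195a is placed in it by its 3p arm, which lacks the family seed. Its 5p arm had fewer reads than miR-497a-5p in both replicates. The upper steps were wide. miR-16-1 stood 2.98 and 3.19 times above miR-15b, miR-15b 3.21 and 3.48 times above miR-195a, and miR-195a 2.15 and 2.47 times above miR-497a. At the lower end counting error mattered. In reads per 1000000 mature and star reads (RPM), miR-497a-5p stood at 20.5 (95% Wilson interval 16.9 to 24.9) and 17.2 (13.9 to 21.3), and miR-15a-5p at 13.2 (10.4 to 16.8) and 13.0 (10.2 to 16.5). Their intervals were apart in replicate 1 and overlapped in replicate 2. miR-497b stood at 11.1 (8.51 to 14.4) and 9.72 (7.33 to 12.9), and its intervals overlapped those of miR-15a-5p in both replicates. With 2 values against 2, an exact permutation test cannot go below p = 0.33, so no step of this order can pass such a test.

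**Figure D2:**
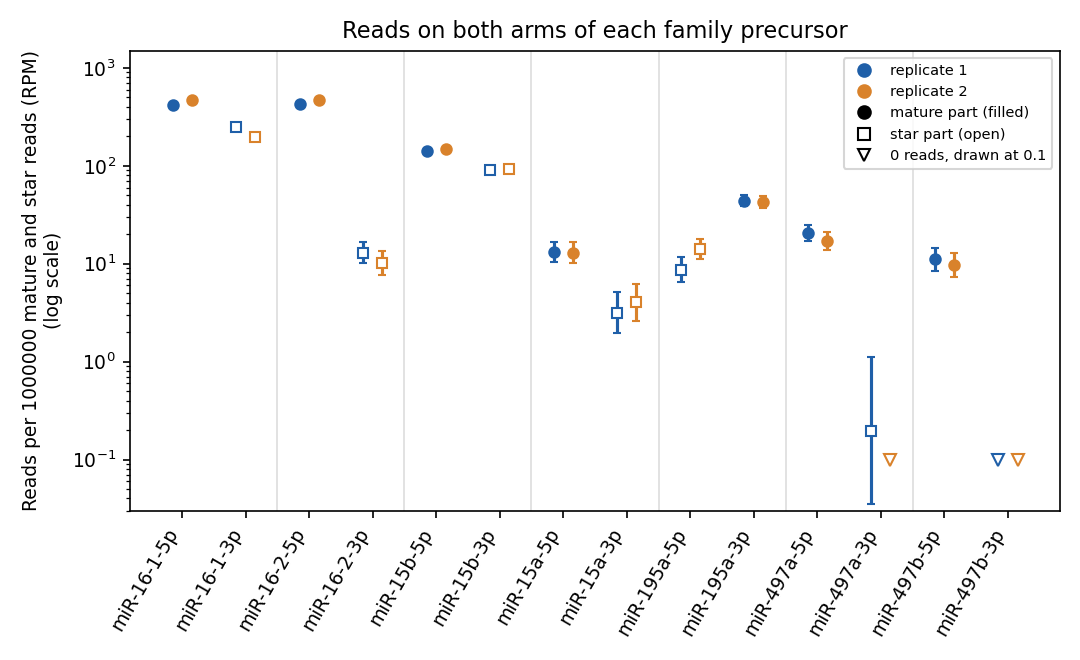
Reads per 1000000 mature and star reads (RPM, log axis) are given for the 5p and 3p arm of each precursor in replicates 1 and 2, with filled circles for mature arms, open squares for star arms, 95% Wilson intervals and triangles at 0.1 for arms with 0 reads. The 5p arms of both miR-16 entries sit at the same height, while miR-16-1-3p stands about 19 times above miR-16-2-3p, and miR-195a is the member whose 3p arm exceeds its 5p arm.

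The 3p arms, which differ in sequence between the loci, separated the miR-16 genes. miR-16-1-3p had 1253 and 970 reads in replicates 1 and 2, against 66 and 50 for miR-16-2-3p. The Dleu2 locus therefore held 94.996% (95% Wilson interval 93.7 to 96.0) and 95.1% (93.6 to 96.3) of the miR-16 3p reads, a ratio of 18.98 and 19.40 between the arms. The replicates did not differ in this share by more than its counting interval.

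The miR-15 arms had the opposite order between the same loci. miR-15b-5p of the Smc4 locus had 10.7 and 11.4 times the reads of miR-15a-5p of the Dleu2 locus. On the 3p side, miR-15b-3p had 460 and 459 reads against 16 and 20 for miR-15a-3p, 28.75 and 22.95 times as many. Within the Dleu2 cluster miR-16-1-3p exceeded miR-15a-3p by 78.3 and 48.5 times, and within the Smc4 cluster miR-15b-3p exceeded miR-16-2-3p by 6.97 and 9.18 times. On the 3p side, the miRNA with more reads was thus miR-16 at one locus and miR-15 at the other, in both replicates.

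Ratios of the listed mature reads within clusters were 31.9 and 36.4 for miR-16-1 to miR-15a, 2.997 and 3.211 for miR-16-2 to miR-15b and 2.15 and 2.47 for miR-195a to miR-497a. Both ratios with miR-16 use the shared miR-16-5p reads, so neither is a ratio of the products of that cluster alone. On the arm with the family seed, the chromosome 11 pair had the other order, with 2.36 and 1.21 times as many reads on miR-497a-5p as on miR-195a-5p.

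Several members had a large part of their reads on the star arm. Over the 377 precursors with at least 20 mature and star reads in each replicate and the same mature arm in both, the median star share (star reads over mature and star reads) was 0.949%, and 47 precursors exceeded 20%. The star share of miR-15b was 39.0% (95% Wilson interval 36.3 to 41.9) in replicate 1 and 38.6% (35.8 to 41.4) in replicate 2, which ranked 14 among the 377. That of miR-16-1 was 37.0% (35.3 to 38.6) and 29.4% (27.9 to 31.0), rank 19. Its denominator holds the 5p reads shared with miR-16-2, so this is the share within the listed entry and not of the locus alone.

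The smaller entries followed. The star share of miR-15a was 19.3% and 23.8% and that of miR-195a 16.4% and 25.0%, with ranks 40 and 43. By contrast, miR-16-2 had 2.98% and 2.09% of its reads on the star arm, with the same shared 5p reads in its denominator. The star arm of miR-497a had 1 read in replicate 1 and 0 in replicate 2, and that of miR-497b had 0 in both. At these totals a count of 0 allows a level of up to 0.592 RPM in replicate 1 and 0.607 RPM in replicate 2.

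**Figure D3:**
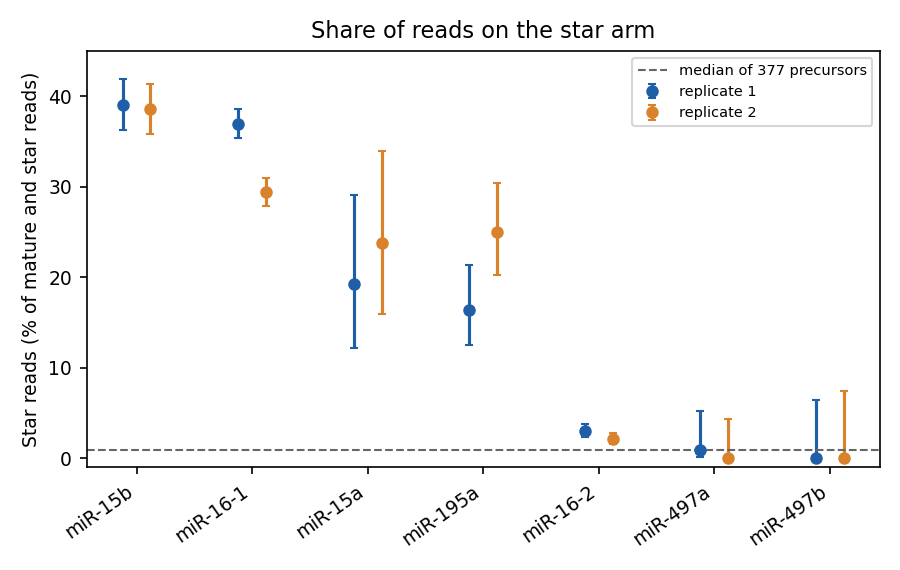
The share of star reads (% of mature and star reads) is plotted for 7 family precursors in replicates 1 and 2 with 95% Wilson intervals, and the dashed line marks the median of 377 precursors, 0.949%. miR-15b, miR-16-1, miR-15a and miR-195a lie above 16% in both replicates, and the intervals of miR-16-1 do not overlap between the replicates.

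The replicates differed in the star share of the miR-16-1 entry, that is in miR-16-1-3p reads set against the miR-16-5p reads listed at both loci. By Fisher's exact test of star against mature reads, with Benjamini-Hochberg adjustment over 377 precursors, the star share of miR-16-1 was lower in replicate 2 than in replicate 1 (adjusted p = 2.78e-09). It was the only one of 8 family entries to pass, and 8.75% of the precursors tested passed. This test, too, compares 2 libraries and covers counting error only. The miR-195a share of 16.4% against 25.0% did not pass (adjusted p = 0.138).

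The same was seen arm by arm. In an exact binomial test of each arm against the totals of mature and star reads, 4 of 13 member arms passed, beside 36.8% of all 603 arms tested. miR-16-1-3p was lower in replicate 2 (log2 ratio -0.33, adjusted p = 4.44e-07), with 196 RPM against 247 in replicate 1. miR-195a-5p was higher (log2 ratio 0.70, adjusted p = 0.0324), with 14.2 RPM against 8.68. With TMM factors or DESeq2 size factors miR-195a-5p did not pass (adjusted p = 0.0540 and 0.0662), whereas miR-16-1-3p did. The remaining 2 were the 5p arms of the miR-16 entries, which hold the same reads and were higher in replicate 2. With DESeq2 size factors these did not pass either (adjusted p = 0.0753 for miR-16-1 and 0.0665 for miR-16-2).

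In the exact binomial test of mature reads over entries, 2 of 8 family entries passed, beside 41.1% of the 431 entries tested. Both were the miR-16 entries, with log2 ratios of replicate 2 to replicate 1 of 0.16 and 0.17 and adjusted p = 0.000531 and 0.000451. Among all entries 27.6% passed with a higher level in replicate 2. Of the 177 calls, 67.2% were higher in replicate 2, which became 48.3% of 178 with TMM factors and 44.3% of 176 with DESeq2 size factors. With DESeq2 size factors neither miR-16 entry passed (log2 ratios 0.10 and 0.10, adjusted p = 0.0652 and 0.0577). This test compares 2 libraries and covers counting error only.

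The common dispersion over the 431 entries corresponded to a coefficient of variation of 15.2% beyond counting error. The coefficient of variation of the shares of a member was 8.02% and 8.10% for the miR-16 entries, 3.24% for miR-15b, 1.26% for miR-15a, 2.59% for miR-195a, 12.3% for miR-497a and 8.91% for miR-497b. The median over all entries tested was 9.28%. The spread differed among single arms, counting error included. It was 34.0% for miR-195a-5p and 16.2% for miR-16-1-3p, but 1.66% for miR-15b-3p and 2.75% for miR-195a-3p. The median absolute log2 ratio was 0.11 over the 8 family entries and 0.19 over the 431.

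**Figure D4:**
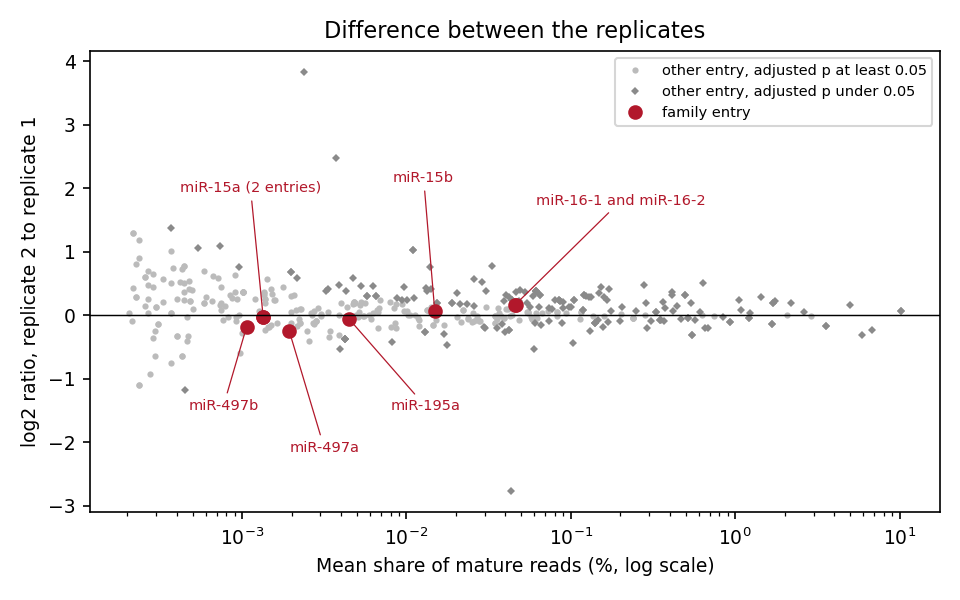
Each point is 1 of 431 entries, with the mean share of mature reads (%, log axis) against the log2 ratio of replicate 2 to replicate 1, and the 8 family entries are in red. The family entries lie between -0.25 and 0.17, and both miR-16 entries overlie each other.

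Support for the hairpins differed among the members. The deposited miRDeep2 score, which rises with the fit of reads and folding to a true precursor, was 1700 and 1600 for miR-16-1, 1100 and 1200 for miR-16-2 and 600 in both replicates for miR-15b. The scores of miR-195a (2.4 and 2.5) and miR-497b (2.6 in both) were low. miR-497a scored 55 in replicate 1, where its single star read lay, and 2.5 in replicate 2, where it had none.

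The listing of miR-15a differed between the tables. In replicate 1 its mature sequence was listed with 24 bases, its score was -2.3 and it failed the randomized folding test listed in the tables. In replicate 2 the sequence had 22 bases, identical to RefSeq, the score was 43 and the folding test was passed. The overlapping hairpin listed with the same 67 and 64 reads placed them on its 3p arm, had no star read and scored -5.1 and -6.2. Folded with RNAfold, the hairpin of miR-15a had a minimum free energy of -24.5 kcal/mol and the overlapping one -13.8 kcal/mol.

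The reads of miR-497b lie opposite miR-497a and do not carry its seed. Turned to the other strand, they cover bases 34 to 56 of the miR-497a hairpin, and 16 of these bases belong to its 3p arm (bases 41 to 62). That 3p arm had 1 read and 0 reads itself, and miR-497b is therefore a family member by name, without the seed AGCAGCA on its read arm.

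Arms with the family seed were sought in the precursors listed in both replicates with the same mature arm in each. Bases 2 to 7 of the seed were found at 2 further miRNAs with reads, miR-322 and miR-503, which lie together in another cluster. In both, the seed lies on the star arm. miR-503-5p had 3365 and 3005 reads and miR-322-5p had 1168 and 1008. In RPM, miR-503-5p stood at 636 ± 39.4, miR-16-5p at 450 ± 35.7, miR-322-5p at 217 ± 18.7, miR-15b-5p at 145 ± 4.46, miR-497a-5p at 18.9 ± 2.34, miR-15a-5p at 13.1 ± 0.187 and miR-195a-5p at 11.4 ± 3.88 (SD, n = 2 each).

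Among reads of the searched precursors on arms with bases 2 to 7 of the seed, the members supplied 40.5% (95% Wilson interval 39.4 to 41.6) in replicate 1 and 45.1% (44.0 to 46.2) in replicate 2, a mean of 42.8% ± 3.26 (SD, n = 2). With bases 2 to 8 required, which leaves out miR-503-5p, they supplied 72.5% (71.2 to 73.9) and 76.6% (75.3 to 77.8), a mean of 74.6% ± 2.86 (SD, n = 2). Within the members, miR-16-5p made up 69.8% and 71.2% of the reads with the seed. Among the relatives, miR-503-5p (log2 ratio -0.13, adjusted p = 0.00199) and miR-322-5p (log2 ratio -0.18, adjusted p = 0.0155) were lower in replicate 2 by the exact binomial test over arms. The ratio of miR-503-5p to miR-16-5p was 1.56 in replicate 1 and 1.28 in replicate 2. Of the other miRNA names with this seed that were sought, miR-424, miR-1907, miR-6342, miR-6353 and miR-6419 had no entry.

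**Figure D5:**
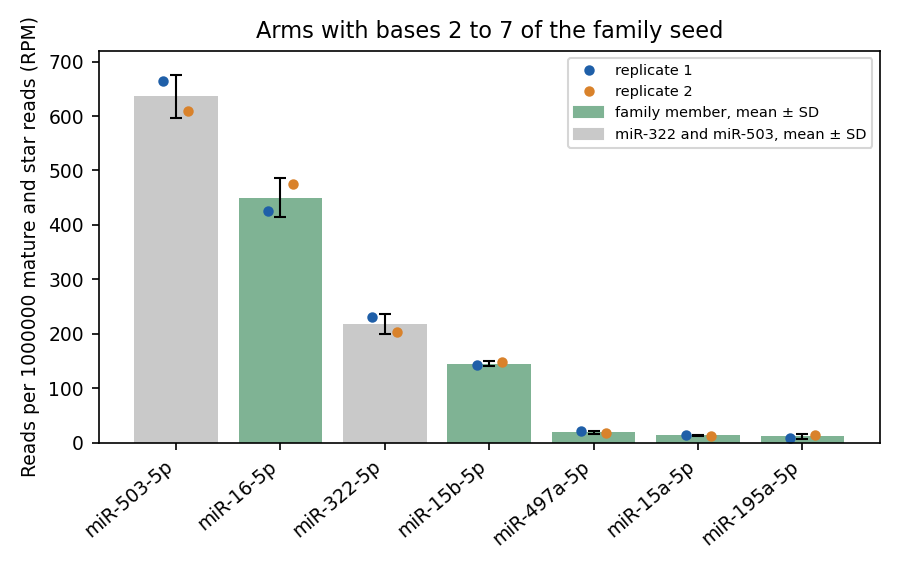
Bars give the mean RPM (reads per 1000000 mature and star reads) of each arm with bases 2 to 7 of the family seed, error bars the SD and points the 2 replicates, with members in green and the relatives miR-322 and miR-503 in grey. miR-503-5p, which differs from the family at base 8, leads at 636 and miR-16-5p follows at 450, and 3 member arms lie under 20.

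A larger family tied to the cell cycle, that of the miR-17 seed, gives a scale for these levels. Its 6 5p arms (miR-20a, miR-17, miR-93, miR-20b, miR-106b and miR-106a) summed to 12203 and 11990 RPM. This was 20.04 and 17.96 times the 609 and 668 RPM of the member arms with the family seed. The leading arm, miR-20a-5p, stood at 5563 ± 202 (SD, n = 2). In shares of mature reads, the miR-322 and miR-503 entries, which are read mostly on 3p, took 0.399% ± 0.00422 (SD, n = 2).

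Matches to the family seed were sought in the 3′ UTRs of 10 cell cycle and survival genes known as targets of the family. The motifs, on the mRNA strand and counted without overlap between kinds, were TGCTGCTA (8mer, pairs with bases 2 to 8 and an A opposite base 1), TGCTGCT (7mer-m8) and GCTGCTA (7mer-A1). In the longest annotated 3′ UTR, 8 of the 9 genes with one held at least 1 match, 17 in all. Of 20007 genes with a 3′ UTR, 22.5% held a match. The listed genes had longer 3′ UTRs (median 2427 bases against 891), and among the 12428 genes within the length range of the list the share was 30.7%. Since the list was made of known targets, its share is not independent evidence.

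The 4 cyclin genes on the list, which act at entry into S phase, held matches. Ccnd1 and Ccnd2 held 3 each, and Ccnd3 and Ccne1 (cyclin E) 2 each. Cdc25a, the phosphatase that activates cyclin-dependent kinases, the checkpoint kinase gene Chek1 and the transcription factor gene E2f3 held 2, 1 and 2 matches. Bcl2, which protects cells from apoptosis, held 2. Cdk6, the kinase partner of D cyclins, held 0 in 2427 bases. Wee1, which restrains entry into mitosis, had no 3′ UTR in the annotation and was not searched.

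Full 8mers were held by 6 of these genes, beside 3.74% of all genes with a 3′ UTR. Among the 12428 genes within the length range of the list the share with an 8mer was 4.96%. Each 8mer of the listed genes is shown with the bases upstream of it, where the rest of the miRNA would lie, and the match in capitals.
Ccnd2: taatgtttcacggtgTGCTGCTA
Ccne1: ctcttattttgtaagTGCTGCTA
Cdc25a: gctgcagaccagtatTGCTGCTA
Chek1: tcctggtgaatagagTGCTGCTA
E2f3: ctggtaccattgagtTGCTGCTA
Bcl2: gaataagaaaccctgTGCTGCTA

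In NCBIM37 the capitals lie at chr6:127078559-127078566 for Ccnd2, chr7:38883042-38883049 for Ccne1, chr9:36517875-36517882 for Chek1, chr13:29999256-29999263 for E2f3 and chr1:108437375-108437382 for Bcl2, all on the minus strand. That of Cdc25a lies at chr9:109795374-109795381 on the plus strand. A match is a description of the annotated sequence, and no mRNA or protein level was measured in these libraries.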

How the data were processed

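Total RNA of wild-type hearts was extracted with TRIZOL, and libraries were made with the TruSeq Small RNA kit and sequenced as single-end reads of 50 nt on an Illumina HiSeq instrument. For each library the authors ran miRDeep2 against mm9. They deposited unnormalized read counts for the mature, star and loop parts of known precursors. The deposited miRDeep2 score was used as listed. Versions of miRDeep2 and miRBase and read trimming are not given in the sources used here.

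Members and lists were chosen with earlier results of these data known. Named miRNAs were the members, other names with the same seed, the miR-17 family, and the entries just above and below each member by mean share. Entries of the replicates were paired where they overlapped by at least 50% of both hairpins. Reads of one sequence can be listed at several precursors. Shares are percent of mature reads, and levels of arms are RPM, reads per 1000000 mature and star reads. Means have an SD over 2 replicates. Wilson intervals and limits for a count of 0 (3 reads) cover counting error only.

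With 1 group, no conditions were compared. The replicates were compared by two-sided exact binomial and Fisher tests with Benjamini-Hochberg adjustment over all items with at least 20 reads in sum (for star shares, in each replicate), called at an adjusted p under 0.05, and log2 ratios used a pseudocount of 0.5 reads. The binomial test was checked first on counts simulated with counting error only. It called 176 of 200 simulated 2-fold changes, with 2 false calls. That check did not cover spread between replicates. Dispersion and TMM factors came from edgeR 4.0.16 (intercept-only design) and size factors from DESeq2 1.42.0, under R 4.3.3. Other steps used scipy 1.17.1, pandas 2.3.3 and numpy 2.4.6 under Python 3.11.15, matplotlib 3.10.9 for plots and RNAfold 2.7.2. Hairpins were placed on NCBIM37 with GENCODE vM1, from which the 3′ UTRs were taken. Mature sequences were compared with RefSeq's table for GRCm38.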

Additional observations from a re-analysis of the deposited data

Results flagged for a closer look

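Reads on the loop of miR-16-1, a part that no comparison used on its own and that counted only in all reads of the precursor, numbered 16 in replicate 1 and 12 in replicate 2, above the 3 reads that a count of 0 allows. No other family entry had a loop read in either replicate. Among all entries, 20 had more than 3 loop reads in both replicates.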

How the results depend on the processing

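No paired analysis was possible because there is 1 group. The family share of 0.117% became 0.0957% with each mature sequence counted once in the family and in the total (0.0699% over all mature reads), 0.148% with all reads of the precursor and 0.0638% with only arms that carry the seed, each sequence once and over mature and star reads (chosen after seeing the data). It spanned 0.112% to 0.122% when a replicate was left out. With all reads of the precursor, the mean ratio of miR-16-1 to miR-15a rose from 34.2 to 40.2, that of miR-195a to miR-497a from 2.31 to 2.92, and that of miR-16-2 to miR-15b fell from 3.10 to 1.95. The log2 ratio of miR-16-1 between the replicates was -0.0043 with all reads of the precursor (adjusted p = 0.958, exact binomial test). Over the alternatives its adjusted p lay between 0.000418 and 0.958, and that of miR-16-2 between 0.000219 and 0.0577. The count of entries that differed between the replicates lay between 138 and 184 under scaling, minimum and counting alternatives, was 222 over arms and 33 for the star share by Fisher's exact test, which tests another quantity on 377 precursors. Both were added after seeing the data. The order of the members kept all 5 steps under both alternatives, neither of which ranked by the arm with the seed alone. With all reads of the precursor, miR-497a stood above miR-15a by only 85 against 84 reads in replicate 2. The target matches numbered 16 in the shortest 3′ UTRs. The share of the members among seed-bearing reads rose from 42.8% to 74.6% with bases 2 to 8 required in place of 2 to 7, which leaves out miR-503-5p (chosen after seeing the data). The main limits include 2 libraries, an unstated origin of the replicates and few reads: miR-15a, miR-497a, miR-497b and miR-195a-5p rest on 104 reads or fewer per replicate. Different sequences were compared by their read counts, with no correction for how well each was captured in the libraries. The SD and Wilson intervals do not cover this.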
